A study of Mus musculus with 6 samples.

Results

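Met, the cell-surface receptor of hepatocyte growth factor (HGF), was followed together with the genes that make, activate, restrain and transmit its signal, in mouse mammary tumour cells selected for metastasis and in the cells they came from. The group held 9 genes of the 18193 that the arrays measure with probe sets annotated to a single gene symbol. They were chosen by their known roles, with no threshold on their signals, but with earlier results of these data known. The group was the receptor Met, the related receptor Mst1r, the ligand Hgf, the proteases Hgfac and St14, the protease inhibitors Spint1 and Spint2, the adaptor Gab1 and the ubiquitin ligase Cbl. They were covered by 17 probe sets, and each gene was represented by its brightest one. Of the 9 genes, 4 reached a mean signal of 100 over the 6 arrays and were tested in the main fit (Met, St14, Gab1 and Cbl). The other 5 were described by their signals, beside exact permutation tests and a fit without the signal filter.

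The cells compared were E0771-HML2, with 3 cultures, and parental E0771, also with 3 cultures. E0771 is a mammary tumour line of C57BL/6 mice. HML2 cells had gone through repeated rounds of injection into the fat pad of C57BL/6 mice and recovery from the lung, and were of the second generation, whereas the parental cells were not selected. All dishes grew for 3 days, with 10% serum and antibiotics in the medium, so the values describe tumour cells in a dish, away from the fibroblasts and macrophages of a tumour or a lung. The labels do not say whether the 3 HML2 cultures go back to separate animals or selections, so the p-values measure the spread between cultures.

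Met is a receptor tyrosine kinase: binding of HGF turns on its kinase, and the phosphorylated tail recruits adaptors such as Grb2 and Gab1 that pass the signal to the RAS, PI3-kinase and RAC pathways, which drive scattering, migration and survival of epithelial cells. HGF is made mainly by mesenchymal cells and macrophages and is secreted as an inactive single chain. Serine proteases cut it into the active form, among them HGF activator (Hgfac) in plasma and matriptase (St14) on the surface of epithelial cells, and the Kunitz-type inhibitors Spint1 (HAI-1) and Spint2 (HAI-2) hold these proteases in check. Cbl tags the activated receptor with ubiquitin for removal from the surface.

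The sequence in front of the Met gene is shown because Met is the member whose difference was most precisely measured, and that in front of Spint1 because it holds the same short motif while its gene had signals near background. Each run gives 250 bases before and 30 bases after a RefSeq start, 5′ to 3′ on the strand of the gene, in build GRCm38.p6, with matches to the AP-1 motif TGANTCA in capitals. The Met window lies at chr6:17463707-17463986 on the plus strand, and the Spint1 window at chr2:119237110-119237389 on the plus strand.
Met: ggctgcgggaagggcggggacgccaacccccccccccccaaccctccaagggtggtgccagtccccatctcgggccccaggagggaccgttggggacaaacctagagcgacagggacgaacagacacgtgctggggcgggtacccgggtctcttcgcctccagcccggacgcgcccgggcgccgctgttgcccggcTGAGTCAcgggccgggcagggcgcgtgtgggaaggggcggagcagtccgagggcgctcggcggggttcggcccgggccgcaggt
Spint1: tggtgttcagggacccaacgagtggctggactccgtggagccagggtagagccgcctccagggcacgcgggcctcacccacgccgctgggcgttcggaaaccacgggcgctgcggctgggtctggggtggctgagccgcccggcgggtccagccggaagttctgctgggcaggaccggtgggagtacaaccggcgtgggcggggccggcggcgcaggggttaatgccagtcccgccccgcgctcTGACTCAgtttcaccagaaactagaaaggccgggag
The motif reads the same on both strands. Its first base lies 54 bases before the start of Met and 6 bases before that of Spint1. Among 32851 mouse promoter windows of the same length, 7.46% held it. The GC box GGGCGG, searched on both strands with overlaps allowed, was found 3 times in the Met window and 3 times in the Spint1 window, and 34.7% of all windows held it. The table gave 11 windows for 8 of the 9 genes. The AP-1 letters were in 2 of these windows and the GC box in 7. The Ets core CCGGAA and an NF-kB motif were searched on both strands as well. The Met window held 0 of either. The Spint1 and Cbl windows each held 1 Ets core and 0 NF-kB motifs. Of all mouse windows, 14.2% held the Ets core and 4.22% the NF-kB motif. A match of letters is a description of the sequence and says nothing of binding in these cells.

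Each array had been scaled to a trimmed mean signal of 500. A signal of 100 was reached by 39.7% to 40.2% of probe sets on the HML2 arrays and by 40.5% to 41.6% on the parental arrays. The 3 probe sets for bacterial tryptophan genes, which should not bind mouse RNA, read 1.97 to 36.2 and were used as a gauge of background. Dividing the 3′ by the 5′ control, a gauge of RNA quality, gave 0.770 to 0.816 in HML2 and 0.799 to 0.803 in parental cells for Gapdh, and 1.36 to 1.39 in HML2 and 1.41 to 1.53 in parental cells for beta-actin. Of 8 mammary epithelial markers, Krt8 and Epcam passed the signal filter. Krt8, a keratin, had signals of 3592, 4875 and 4057 on the HML2 arrays and of 1034, 1098 and 1154 on the parental arrays (1.87, limma adjusted p = 8.1e-05). Epcam, an epithelial adhesion molecule, averaged 83.5 in HML2 and 133 in parental cells (-0.45, adjusted p = 0.12, and -1.14 with adjusted p = 0.0044 averaged over its probe sets). Cdh1, which encodes E-cadherin, averaged 19.4 in HML2 and 22.9 in parental cells. The summed signal of the 8 epithelial markers was 3844 to 5132 in HML2 and 1327 to 1440.0 in parental cells, most of it Krt8. Of the 8 markers, 5 had the lower mean in HML2. Among these 5, Cdh1, Krt7, Krt14 and Krt19 had means in or near the range of the bacterial controls in both groups. Besides Krt8, the keratins Krt18 (86.0 in HML2 and 34.2 in parental cells) and Krt5 (58.5 in HML2 and 26.1 in parental cells) had the higher mean in HML2, below the signal filter. That of 8 fibroblast markers was 1233 to 2205 in HML2 and 2653 to 4918 in parental cells, carried mostly by Pdgfra, which was called lower, and Pdgfrb, which was not called (-1.18, limma adjusted p = 0.053). Of these 8 markers, 7 had the lower mean in HML2, among them Col1a1 (20.8 in HML2 and 71.8 in parental cells) and Dpt (22.4 in HML2 and 150.4 in parental cells), and Dcn averaged 23.6 in HML2 and 23.2 in parental cells. Of 8 leukocyte and macrophage markers, 2 passed the filter, and their summed signal was 239.9 to 485 in HML2 and 417 to 449.8 in parental cells. Lyz2, the lysozyme of myeloid cells, averaged 78.9 in HML2 and 192 in parental cells and was called lower (-0.91, limma adjusted p = 0.0074). Ptprc, the pan-leukocyte marker CD45, averaged 8.71 in HML2 and 5.24 in parental cells. The macrophage marker Cd68 averaged 106 in HML2 (216 on HML2 replicate 1) and 63.6 in parental cells. Adgre1, C1qa, C1qb, Cd68 and Ptprc had the higher mean in HML2, and Csf1r, Itgam and Lyz2 the lower. Of 6 lung epithelial markers 1 passed the filter, and of 5 endothelial markers 0. The part of these markers and of RNA quality in the results on the 9 genes was not tested. In RNA from whole cultures, more cells with a transcript and more transcript per cell cannot be told apart.

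Met was higher in HML2 cells. Its signals were 4461, 5090.2 and 4762 on the HML2 arrays and 1777, 1651 and 1515 on the parental arrays. All HML2 signals lay far above all parental signals, and the cultures within each group differed little. The mean signal was 4771 ± 315 in HML2 cells and 1648 ± 131 in parental cells (SD, n = 3 each), a ratio of 2.90. On the scale of log2(signal + 50), used throughout to damp the noise of low signals, HML2 minus parental was 1.51 ± 0.12 (SE; 95% interval 1.24 to 1.77), with an adjusted p = 1.0e-04 by limma with Benjamini-Hochberg adjustment over 9361 genes. Taken between arrays of the same replicate number, the difference was 1.30, 1.60 and 1.62. Among the genes called higher, Met had place 83 by size of difference.

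A second, dimmer probe set of Met differed by less. It read 159, 114 and 164 on the HML2 arrays and 71.0, 103 and 77.3 on the parental arrays. The groups did not overlap, but HML2 replicate 2 lay close to parental replicate 2. The means were 146 ± 27.4 in HML2 and 83.8 ± 17.0 in parental cells, a ratio of 1.74. When all probe sets were tested separately, the difference of 0.55 ± 0.20 (SE) did not pass the test (limma adjusted p = 0.071). Taken without an offset, the ratio was 1.74 for this probe set and 2.90 for the brighter one. An offset of 50 weighs more on such low signals, which also lie nearer to the bacterial controls (up to 36.2). The parental mean of 83.8 was itself below the signal filter, which this probe set passed through its HML2 arrays. Why the probe sets differed, and the part of the offset and of background in this, was not tested.

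Mst1r (also named Ron), the receptor of macrophage-stimulating protein and the closest relative of Met, had a low and scattered signal below the filter. Its signals were 105, 2.57 and 12.4 on the HML2 arrays and 58.8, 51.0 and 28.0 on the parental arrays. HML2 replicate 1 had the highest value and the other HML2 arrays the lowest, so the groups overlapped.

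**Figure D1:**
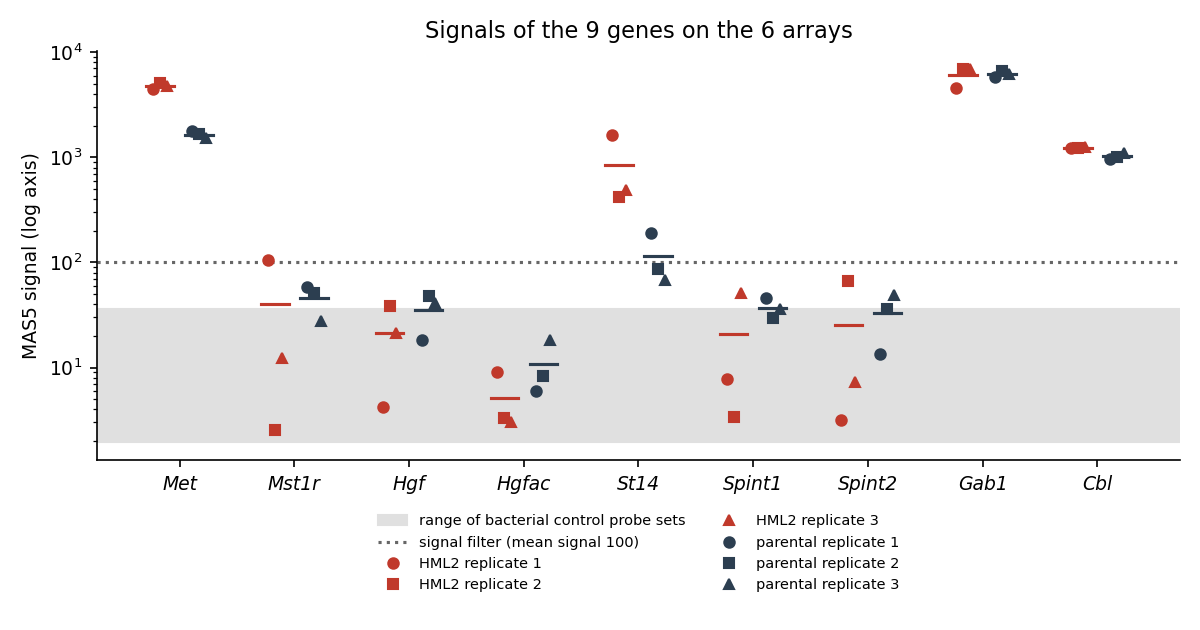
MAS5 signal on a log axis for the 9 genes, with 1 point per array (circle, square and triangle for replicates 1, 2 and 3), HML2 in red left of parental in dark blue, and bars at the group means. Grey marks the 1.97 to 36.2 range of the bacterial controls, and the dotted line the signal of 100. Met and St14 separate the groups widely and Cbl by little, while the groups overlap for Gab1. The other 5 genes lie mostly in or near the range of the controls, with Mst1r at 105 on HML2 replicate 1.

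The ligand had signals in or just above the range of the bacterial controls in both populations. The brightest of 3 Hgf probe sets read 4.21, 38.5 and 21.5 on the HML2 arrays and 18.3, 47.6 and 40.8 on the parental arrays. Over all 3 probe sets the signals lay between 1.49 and 47.6. The groups overlapped on each of them. Hgfac, the plasma activator of HGF and in the body mainly a liver product, read 9.04, 3.33 and 3.03 on the HML2 arrays and 5.98, 8.25 and 18.4 on the parental arrays, all within the range of the controls.

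St14, the membrane protease matriptase, measured by 1 probe set, was higher in HML2 cells. Its signals were 1646, 419.9 and 486 on the HML2 arrays and 189, 87.5 and 67.6 on the parental arrays. The groups did not overlap, but the HML2 cultures were far apart, with replicate 1 more than all others, and replicate 1 was also the highest parental array. The mean was 851 ± 689.6 in HML2 and 115 ± 65.1 in parental cells (SD, n = 3 each), a ratio of 7.42. The log2 difference was 2.26 ± 0.48 (SE; 95% interval 1.18 to 3.35), with an adjusted p = 0.0094 by limma, and 2.83, 1.77 and 2.19 between arrays of the same number. Without HML2 replicate 1 the difference was 1.68 (adjusted p = 0.0022), and without parental replicate 3 it was 2.05 with an adjusted p = 0.047.

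The inhibitors of matriptase and HGF activator had low signals in both populations. Spint1 read 7.72, 3.41 and 51.3 on the HML2 arrays and 45.6, 29.5 and 35.7 on the parental arrays, and the HML2 values lay on both sides of the parental ones. The brighter Spint2 probe set read 3.15, 66.4 and 7.25 on the HML2 arrays and 13.4, 36.1 and 48.9 on the parental arrays, with the same kind of overlap. The other Spint2 probe set read 53.8, 17.2 and 19.1 on the HML2 arrays and 3.31, 48.3 and 14.1 on the parental arrays. For the 5 genes below the filter, exact two-sided permutation tests gave p = 0.30 for Hgfac, 0.40 for Hgf and Spint1, and 0.70 for Mst1r and Spint2, where 3 against 3 arrays allow no p under 0.10. Of the 48 signals of their 8 probe sets, 36 were within the range of the bacterial controls. At this signal over background a difference in these genes was not detectable, which does not show that the transcripts are absent.

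Gab1, the docking adaptor through which Met engages PI3-kinase and SHP2, had a strong signal without a difference that passed the test. Its signals were 4611, 6867 and 6855 on the HML2 arrays and 5783, 6591 and 6159 on the parental arrays. HML2 replicate 1 was the lowest array and the other HML2 arrays the highest. The log2 difference was -0.04 ± 0.16 (SE; 95% interval -0.41 to 0.33), with an adjusted p = 0.89 by limma, and its sign turned to 0.045 with median centring and to 0.15 without HML2 replicate 1. The other Gab1 probe sets had differences of -0.22 and -0.24, with limma adjusted p-values of 0.30 and 0.28 when all probe sets were tested, and in each the HML2 arrays lay below all parental arrays.

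Cbl, which ends Met signalling by directing the receptor to lysosomes, read 1233, 1216 and 1259 on the HML2 arrays and 957, 1003 and 1105 on the parental arrays. All HML2 values lay above all parental ones, by little. The log2 difference of 0.27 ± 0.12 (SE; 95% interval -0.01 to 0.54) did not pass the test (limma adjusted p = 0.14). A second probe set gave 0.24 (adjusted p = 0.21), also without overlap, and the third was near background.

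**Figure D2:**
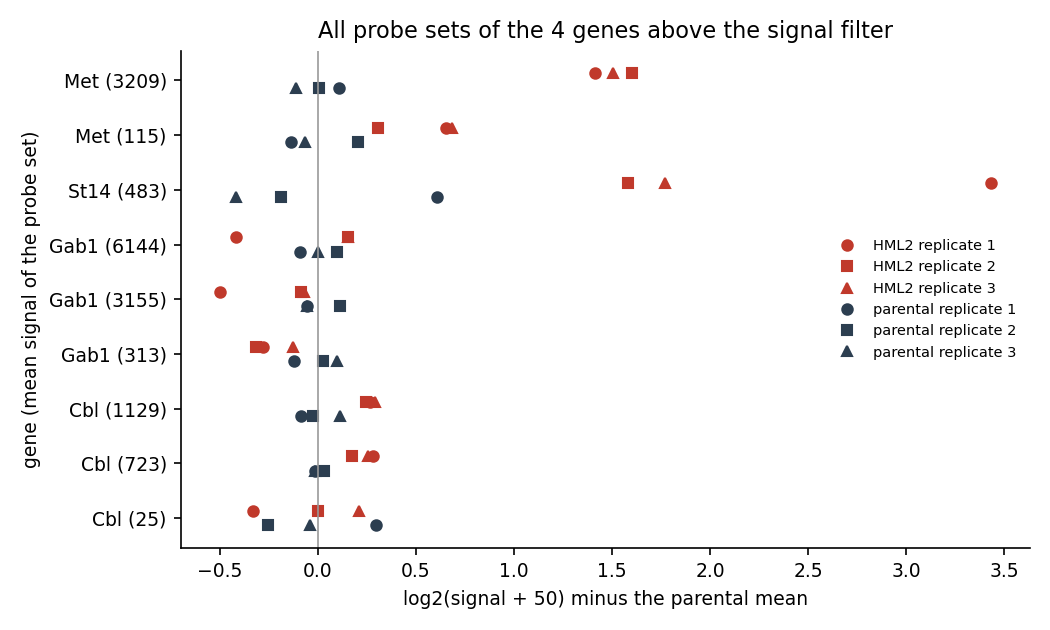
Every probe set of the 4 tested genes, with the log2(signal + 50) of each array minus the parental mean of that probe set on the horizontal axis and the mean signal of the probe set in parentheses; HML2 arrays are red and drawn above the dark blue parental arrays. The HML2 points of the bright Met probe set lie close together near 1.51, those of the dim one near 0.55, and St14 has the widest spread, with HML2 replicate 1 to the right.

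Of the 4 tested members, 2 were called higher and 0 lower (limma, adjusted p below 0.05; at an unadjusted p under 0.05 the counts were also 2 and 0). Over all 9361 genes tested, 12.3% were called higher, 14.9% lower and 27.2% in either direction, and the HML2 and parental arrays did not overlap for 44.4% of genes, against 3 of the 4 tested members. The members were chosen with earlier results of these data known, so setting them beside these shares is a description and no test. Calls over all genes numbered 1155 upward and 1395 downward, against 1482 upward and 1107 downward when arrays were centred on the median, while the 2 calls among the members held under every alternative run.

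Among receptor tyrosine kinases, the family Met belongs to, most called genes went the other way. Besides Met, 19 of 56 listed receptor genes passed the signal filter. Of these, 1 was called higher and 8 lower, beside 12.3% higher and 14.9% lower over all genes tested. Their median log2 difference was -0.50 against -0.02 over all genes tested. Met had the highest difference of these 20 genes, and of the receptor genes tested under each of the 16 alternatives. Epha2, an ephrin receptor, was next each time. With probe sets averaged, the margin was small, at 1.03 for Met and 1.00 for Epha2. The dimmer Met probe set alone had a difference of 0.55, below that of Epha2. Epha2 averaged 753 ± 239 in HML2 and 342 ± 43.3 in parental cells, a log2 difference of 1.00 (adjusted p = 0.012; not called without parental replicate 3, adjusted p = 0.053). In the other direction, Ptk7, a pseudokinase of Wnt signalling, averaged 101 ± 21.5 in HML2 and 852 ± 133 in parental cells (-2.58). Egfr, the receptor of epidermal growth factor, averaged 437 ± 51.4 in HML2 and 1101 ± 202.5 in parental cells (-1.23, and -0.61 averaged over its probe sets). Igf1r (-1.13) and Pdgfra (-1.09), receptors of insulin-like and platelet-derived growth factors, were lower as well. The 8 lower calls fell to 5 without HML2 replicate 2 or 3 or without parental replicate 1 or 3, and 11 were made without HML2 replicate 1.

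**Figure D3:**
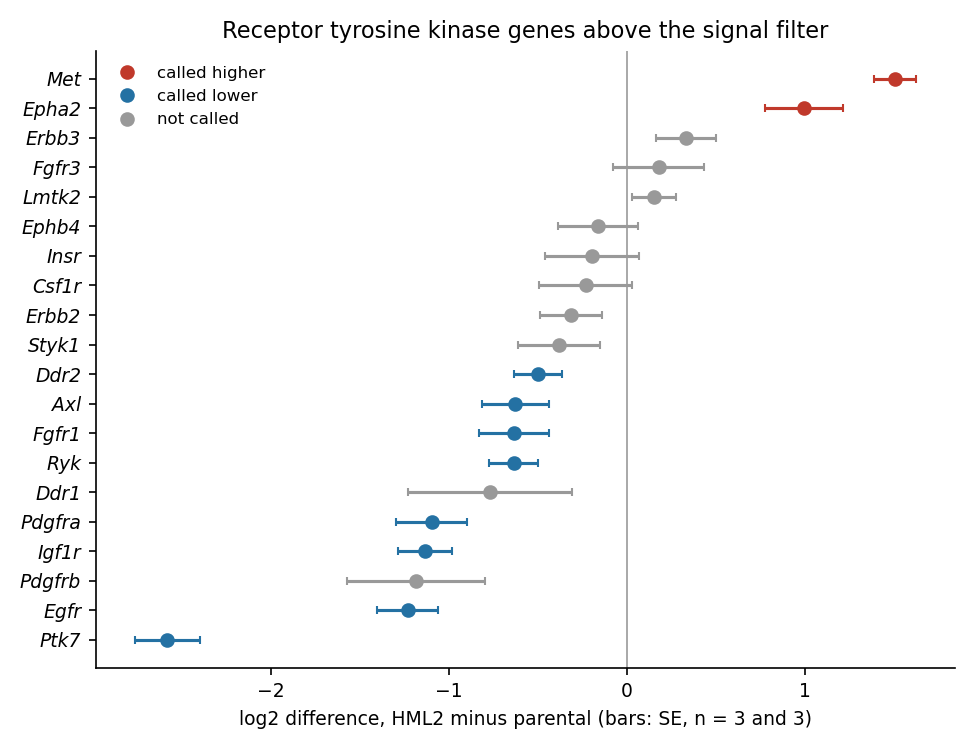
Log2 difference of HML2 minus parental for the 20 receptor tyrosine kinase genes above the signal filter, in order of size, with bars for the SE (n = 3 in each group). Met, at 1.51, and Epha2, at 1.00, are called higher in red, and 8 genes are called lower in blue.

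Partners of Met on the cell surface had calls in both directions. Of 10 tested of 14 listed, 2 were called higher and 4 lower, beside 12.3% and 14.9% over all genes tested. The list median was -0.14. Itga6, the integrin chain that pairs with beta 4, a signalling partner of Met, read 7061, 4013 and 4913 on the HML2 arrays and 1457, 1220.5 and 1125 on the parental arrays, a log2 difference of 2.00 (limma adjusted p = 4.0e-04). The beta 4 chain itself was not among the tested genes of this list. The heparan sulphate proteoglycans Sdc2 (-0.97) and Gpc1 (-0.82), a class of molecules that bind HGF, were lower, and so was the semaphorin receptor Plxnb2 (-0.86). With median centring 4 genes were called higher and 3 lower. Of this list, 1 gene was called higher without HML2 replicate 3 or any single parental array, and 2 were called lower without HML2 replicate 2 or parental replicate 1 or 3. The call of Plxnb2 was lost without HML2 replicate 2 or 3 and without parental replicate 1 or 3.

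Among other proteases, inhibitors and matriptase substrates of the cascade, 3 of 16 listed genes passed the filter and 0 were called in either direction (limma; at an unadjusted p under 0.05, 1 was higher and 2 were lower). Plat, tissue plasminogen activator, had a difference of -0.72 (adjusted p = 0.052), and Plau, urokinase, which can also cut the HGF precursor, one of 0.44 (adjusted p = 0.095). Epcam, a substrate of matriptase, had one of -0.45 (adjusted p = 0.12). Plat was called lower with the replicate number as a block (-0.72, limma adjusted p = 0.019) and without HML2 replicate 1 (-1.02, adjusted p = 2.7e-04), and Plau was called higher with quantile normalization (0.52, adjusted p = 0.047). Epcam was called lower when probe sets were averaged, F11, the precursor of a clotting protease, was called lower with no signal filter (-0.50, adjusted p = 0.041), and array weights gave 1 higher and 2 lower calls.

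Of 25 adaptors and signal transducers tested, of 31 listed, 4 were called higher and 4 lower, with a median of 0.05. These counts were close to the shares over all genes tested, 12.3% higher and 14.9% lower. Grb2, which binds the tail of Met directly, averaged 1553 ± 111 in HML2 and 919.6 ± 32.6 in parental cells (0.72, adjusted p = 0.0037). The small GTPase genes Nras (0.72) and Rac1 (0.63) were higher, and the adaptor gene Crkl (-0.67) was lower. With median centring 5 genes were called higher and 3 lower. Averaged over all their probe sets, Grb2 had a difference of 0.18 and Rac1 one of 0.16, and neither was called. Without HML2 replicate 3 or parental replicate 1 or 3, 1 gene of this list was called lower, and without HML2 replicate 2, 2 genes were.

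Negative regulators of Met, with endocytic and shedding proteins, had 2 higher and 4 lower genes among 20 tested of 23, and a median of -0.13. The shares over all genes tested were 12.3% higher and 14.9% lower. Sh3kbp1 (CIN85), which joins Cbl in the endocytosis of Met, averaged 526 ± 115 in HML2 and 1461 ± 204 in parental cells (-1.40, adjusted p = 0.0011). Adam10, a protease that sheds the outer part of Met, averaged 3092 ± 135 in HML2 and 6288 ± 529.6 in parental cells (-1.01, adjusted p = 5.2e-04). The phosphatase gene Ptprj (-0.72), whose product dephosphorylates Met, was lower, with the call lost without HML2 replicate 2 or 3 or parental replicate 1 or 3. Errfi1, a feedback inhibitor of receptor kinases, was higher (0.81, adjusted p = 0.0058). With quantile normalization, or when any single array was left out, 1 gene of this list was called higher.

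Of 7 tested transcription factors known to act on the Met gene, of 8 listed, 2 were called higher and 0 lower, with a median of 0.09. Beside this stand 12.3% higher and 14.9% lower over all genes tested. Fosl1, an AP-1 subunit, read 1571, 1657 and 1588 on the HML2 arrays and 861, 627 and 751 on the parental arrays (1.07, adjusted p = 0.0014). Ets1 read 7983, 8452 and 9109 on the HML2 arrays and 4884, 3963 and 5414 on the parental arrays (0.84, adjusted p = 0.0027). For both genes all HML2 arrays lay above all parental arrays.

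Of 28 listed genes known to respond to HGF in epithelial cells, 21 were tested, and 10 were called higher and 1 lower. Over all genes tested, 12.3% were called higher and 14.9% lower. The median of the list was 0.50 beside -0.02 over all genes. The list was written with earlier results of these data known. Mmp10, Mmp9 and Dusp5, all called higher, averaged 69.0, 75.9 and 94.7 in parental cells and passed the signal filter through their HML2 arrays. The protease genes Mmp10 (2.04) and Mmp9, the urokinase receptor gene Plaur (1.55) and the stress-response gene Ier3 (2.03) had the largest differences among the calls. Mmp9 averaged 305 ± 53.6 in HML2 and 75.9 ± 19.6 in parental cells. Ier3 averaged 14846 ± 4217 in HML2 and 3588 ± 926 in parental cells. Mmp10 had signals of 895, 238 and 349 on the HML2 arrays and of 82.2, 89.4 and 35.4 on the parental arrays, again with HML2 replicate 1 above the rest. Many of these genes answer to other stimuli too, and Fosl1 and Plau also stand in other lists here. Without parental replicate 3, 5 genes were called higher. Lower calls numbered 2 without HML2 replicate 1 and 0 without any other single array.

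**Figure D4:**
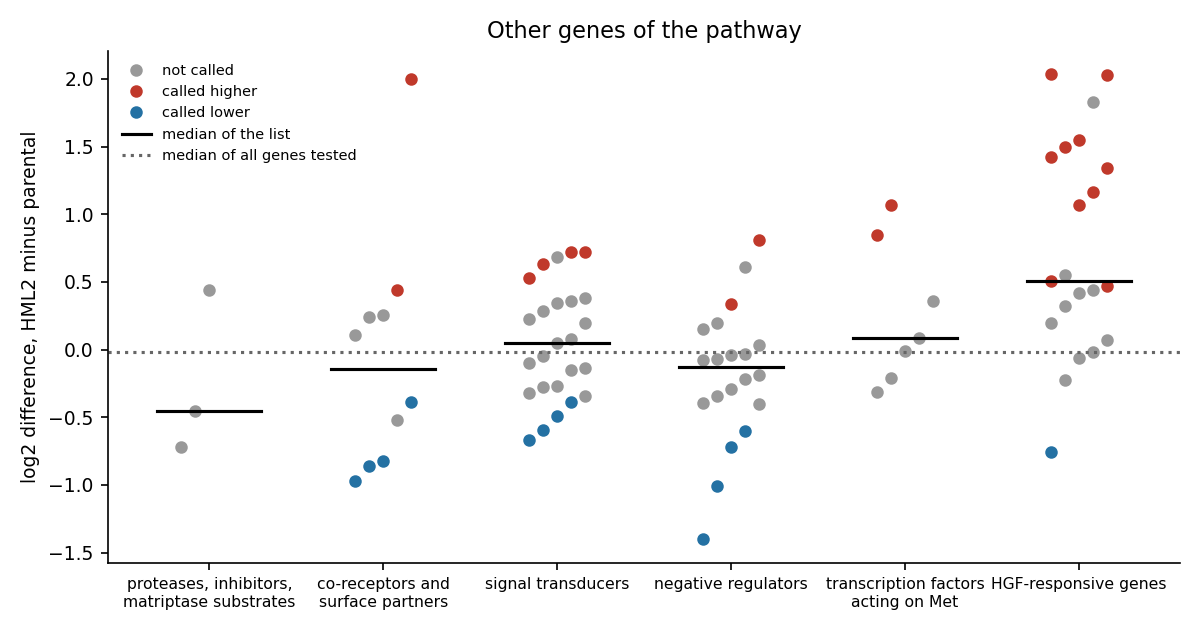
Log2 difference of HML2 minus parental for each tested gene of 6 pathway lists, with 1 point per gene, called genes in red (higher) or blue (lower), black bars at the list medians and a dotted line at the median of all genes. The median of the HGF-responsive genes is 0.50, and those of the other 5 lists lie between -0.45 and 0.09.

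By position, Met lies on mouse chromosome 6, and St14, Cbl and Mst1r on chromosome 9, in the RefSeq table. Of the 10 tested genes nearest to Met in gene order, 5 on each side, 3 were called higher and 1 lower, with differences from -0.64 to 1.23. The immediate neighbours were Cav1, a caveolin, which was lower (-0.64), and Capza2 (0.18), which was not called, and Tes, a focal adhesion gene, was higher (1.23). Around St14, 2 of 10 neighbours were called higher and 1 lower. Among these higher calls, 1110019D14Rik near Met averaged 136 in HML2 and 69.0 in parental cells. Adamts8 near St14 averaged 183 in HML2 and 34.9 in parental cells. Both passed the signal filter only through their HML2 arrays, so their calls are a description. Of all tested genes on chromosome 6, 93 of 459 were called higher (20.3%) and 49 lower (10.7%), and on chromosome 9, 50 of 539 were called higher (9.28%) and 96 lower (17.8%), beside 12.3% higher and 14.9% lower over all tested genes. These neighbours were examined after the values of the members had been seen.

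The 5 genes whose log2 signals over the 6 arrays were most like those of Met were Cdc42bpb, Zfp329, Man2a1, Dgke and Sptlc2, with Pearson correlations of 0.998 to 1.00. Their log2 differences were 0.95, 0.73, 0.39, 0.98 and 0.98. For St14 they were Exd2, Sars, 2610301B20Rik, Klf9 and Rala, with correlations of 0.998 to 0.999 and differences of 0.70, 1.03, 0.82, 1.75 and 0.38, the last not called. The difference of Sptlc2 was -0.09 when its probe sets were averaged, and that of Dgke was 0.51 (not called, adjusted p = 0.15) with an offset of 16. The calls of Sars and 2610301B20Rik were lost without parental replicate 2 or 3, and that of Exd2 without any single array other than HML2 replicate 2 or parental replicate 1. With 6 arrays in 2 groups, such a correlation mostly restates the shared difference between the groups and, for St14, the height of HML2 replicate 1.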

How the data were processed

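For each culture, 15 ug of total RNA went onto 1 mouse whole-genome oligonucleotide array, per the labels' protocols. Each probe set has 1 deposited signal, an intensity on a linear scale, from MAS5 according to the submitters' processing notes, whose version and settings were not given in the sources used here. Scaling to a common trimmed mean (2% left out at each end) hides any difference in total messenger RNA. The table held 45101 probe sets and no detection calls. The array annotation, dated 2016, gave 34945 of them 1 symbol, 932 several and 9160 none. Symbols were updated through RefSeq (GRCm38.p6), which held 34741 of those with 1 symbol. The promoter sequences come from RefSeq with the same build.

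Signals were converted to log2(signal + 50), and the probe set with the higher mean on this scale stood for its gene. Genes with a mean signal of at least 100 were tested in R 4.3.3 by limma 3.58.1 (lmFit, eBayes with an intensity trend, no covariates, 3 HML2 against 3 parental arrays), and p-values were adjusted by Benjamini-Hochberg over all 9361 genes. The fit was tested on simulated data. Alternatives changed the offset (16 or 100), the signal filter (none or 200), the normalization (quantile or median centring), the probe set rule, the intensity trend and the array weights, used the replicate number as a block, or left out each array in turn.

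The members and lists were chosen with earlier results of these data known. Named genes were the 9 members, up to 4 called genes per list in order of size of difference (where under 2 were called, the brightest genes made up 2), and the 5 genes most like Met and St14. Neighbouring genes, Cdh1, Krt5, Krt7, Krt14, Krt18, Krt19, Col1a1, Dpt, Dcn, Epha2, Dusp5, F11, and Epcam as a protease substrate, were named after their values were seen. So were the leukocyte markers Ptprc, Cd68, Adgre1, C1qa, C1qb and Itgam. Deviations from group means correlated by 0.45, 0.34 and 0.24 between arrays of the same replicate number, all above the bound of 0.1 set for pairing. Parental replicate 2 and HML2 replicate 3 also correlated, by 0.24. The remaining pairs of an HML2 and a parental array correlated by -0.38 to 0.09. The main fit was nonetheless unpaired, and the replicate number served as a block only in an alternative run. The labels do not say what the replicate number stands for.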

Additional observations from a re-analysis of the deposited data

How the results depend on the processing

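Met was called higher in all 16 alternatives, with log2 differences of 1.03 (mean of its probe sets) to 1.60 (array weights) and limma adjusted p-values of 6.9e-08 to 0.0018. St14 was called higher in all 16 as well, at 1.68 to 2.60, with adjusted p-values of 2.3e-05 to 0.047. As St14 has 1 probe set, averaging over probe sets could not change its difference. Blocked by replicate number, the difference of Met was 1.51 (adjusted p = 9.2e-05) and that of St14 2.26 (adjusted p = 3.0e-04). The block changed no call among the members. Over all genes it gave 1670 higher and 1831 lower calls, in place of 1155 and 1395. Lower calls were 1 (Plat) in place of 0 among the other proteases, 10 in place of 8 among the other receptor tyrosine kinases and 5 in place of 4 among the surface partners. Higher calls were 12 in place of 10 among the HGF-responsive genes and 5 in place of 4 among the signal transducers. Negative regulators and transcription factors each had 3 in place of 2 higher. Cbl was called in 0 of 16 alternatives (0.21 to 0.35, adjusted p 0.065 to 0.32). The sign of Gab1 turned with median centring (0.045), with array weights (0.13), without HML2 replicate 1 (0.15) and without parental replicate 2 (0.01), and it ranged from -0.13 to 0.15 when single arrays were left out. The cause was not tested. The count of members called was 2 higher and 0 lower in every alternative. Over all genes, array weights gave 2422 higher and 2631 lower. Leaving out single arrays gave 590 to 1577 higher (590 without parental replicate 3, 715 without HML2 replicate 3) and 795 to 1845 lower (795 without parental replicate 3). No signal filter gave 0 further calls among the 5 dim members, whose limma adjusted p-values were 0.45 to 0.76. The absence of detection calls and the background range limit what can be said of genes with signals below about 50.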
